A study of Mus musculus with 26 samples.

Results

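Genes of the G1 checkpoint were taken by name from the RNA-seq count tables of 4T1 cells, 10 of the 45318 genes listed. They are the D cyclins Ccnd1, Ccnd2 and Ccnd3, the E cyclins Ccne1 and Ccne2, the CDK inhibitors Cdkn1a (p21), Cdkn1b (p27), Cdkn2a (p16 and p19Arf) and Cdkn2c (p18), and the pocket protein gene Rb1. 4T1 is a mammary tumor cell line from a BALB/c mouse. The control group (2 libraries) is wild type for MaTAR25, a nuclear long noncoding RNA, and in the study's methods the control cells received a guide RNA against Renilla luciferase. KO1 (3 libraries) and KO2 (4 libraries) are MaTAR25-/- clones. Each was grown from a single sorted cell after CRISPR/Cas9 cut out the region of the MaTAR25 transcription start. The study describes its control cells as single-cell clones too, picked for MaTAR25 levels close to those of the parental cells. A difference between the clones, or from control, thus cannot be told apart from what a single founder cell carried. Nothing in the labels says that the libraries of a group came from separate cultures, and p-values then measure only the spread between these libraries, which may be technical.

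D cyclins pair with CDK4 and CDK6 and E cyclins with CDK2, and these kinases phosphorylate the Rb1 protein so that E2F factors are released and the genes of S phase are transcribed. The INK4 inhibitors (Cdkn2a, Cdkn2c) bind CDK4 and CDK6, the Cip/Kip inhibitors (Cdkn1a, Cdkn1b) bind cyclin-CDK complexes, and Cdkn1a is a classic target of p53. In mammary tumors cyclin D1 is often overexpressed, and Cdkn2a is lost or silenced in many tumors.

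Libraries held 25367211 to 61110585 counts in genes, and levels are given as CPM (a gene's count over the library size, which is scaled by TMM). The KO2 libraries correlated less well with each other across genes (Pearson r of log CPM from 0.938 to 0.970) than the KO1 libraries (0.980 to 0.985) or the control pair (0.991). The count of MaTAR25, whose gene is annotated as 1200007C13Rik, was 35 and 30 in control and 0 to 11 counts in the KO libraries. The epithelial markers Epcam, Cdh1, Krt7, Krt8, Krt18 and Krt19 summed to 3719 to 3902 CPM in control, 5053 to 7330 CPM in KO1 and 2194 to 4532 CPM in KO2. Within this sum Krt7 and Krt8 were called higher in KO1 (log2 fold change 1.89 and 1.32, edgeR adjusted p = 0.00468 and 0.0232). Cdh1 was called lower in all KO libraries together (-0.65, edgeR adjusted p = 0.0684). Epcam, Krt18 and Krt19 were called in no comparison. The part of these differences in the results was not tested. The leukocyte markers Ptprc, Cd3e and Itgam stayed under 1 CPM throughout, as did Pecam1, Kdr, Adipoq, Plin1 and Pdgfrb. Other markers of these lists moved with the groups: Cd68 was at 3.17 and 4.19 CPM in control, 11.4 to 28.3 CPM in KO1 (called higher, adjusted p = 0.0958) and 1.77 to 19.4 CPM in KO2. Cdh5 was at 0.0905 to 1.39 CPM in KO2 (called higher, adjusted p = 0.0317) and at most 0.022 CPM elsewhere. Among fibroblast markers Pdgfra was at 11.7 to 46.9 CPM over all libraries, and Col1a1 was at 2.65 and 3.99 CPM in control and 0.0842 to 0.995 CPM in KO (called lower, adjusted p = 0.0132). Their part in the results was not tested.

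Of the 10 genes, 9 passed the filter on low counts and were tested by edgeR's quasi-likelihood test, called at an adjusted p under 0.1. Against control, 5 of 9 were called in the 7 KO libraries together: Ccnd1, Ccne1, Ccne2 and Cdkn2c were higher and Cdkn1b was lower. Of all 15023 genes tested, 22.6% were called in this comparison, 11.9% higher and 10.7% lower. The median log2 fold change was 0.62 over the 9 genes and 0.06 over all tested genes. For each called gene the 2-sided exact permutation test on log2(CPM + 1) gave p = 0.0278, the least possible with 36 ways to choose the control pair. The ranges of the KO and of the control libraries were separate in 6 of the 9 genes (the called genes and Ccnd3), beside 34.4% of all tested genes. Leaving out either control library leaves 1 in that group, and the calls other than that of Ccne1 were then lost. Each called gene kept its direction. Without control replicate 1 and without control replicate 2 the log2 fold change was 2.36 and 2.68 for Ccne1 and 2.35 and 1.75 for Ccnd1. The share of all tested genes that lose their call in such fits was not counted. Whether a call lost that way, here and below, is particular to these genes is therefore not known.

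**Figure D1:**
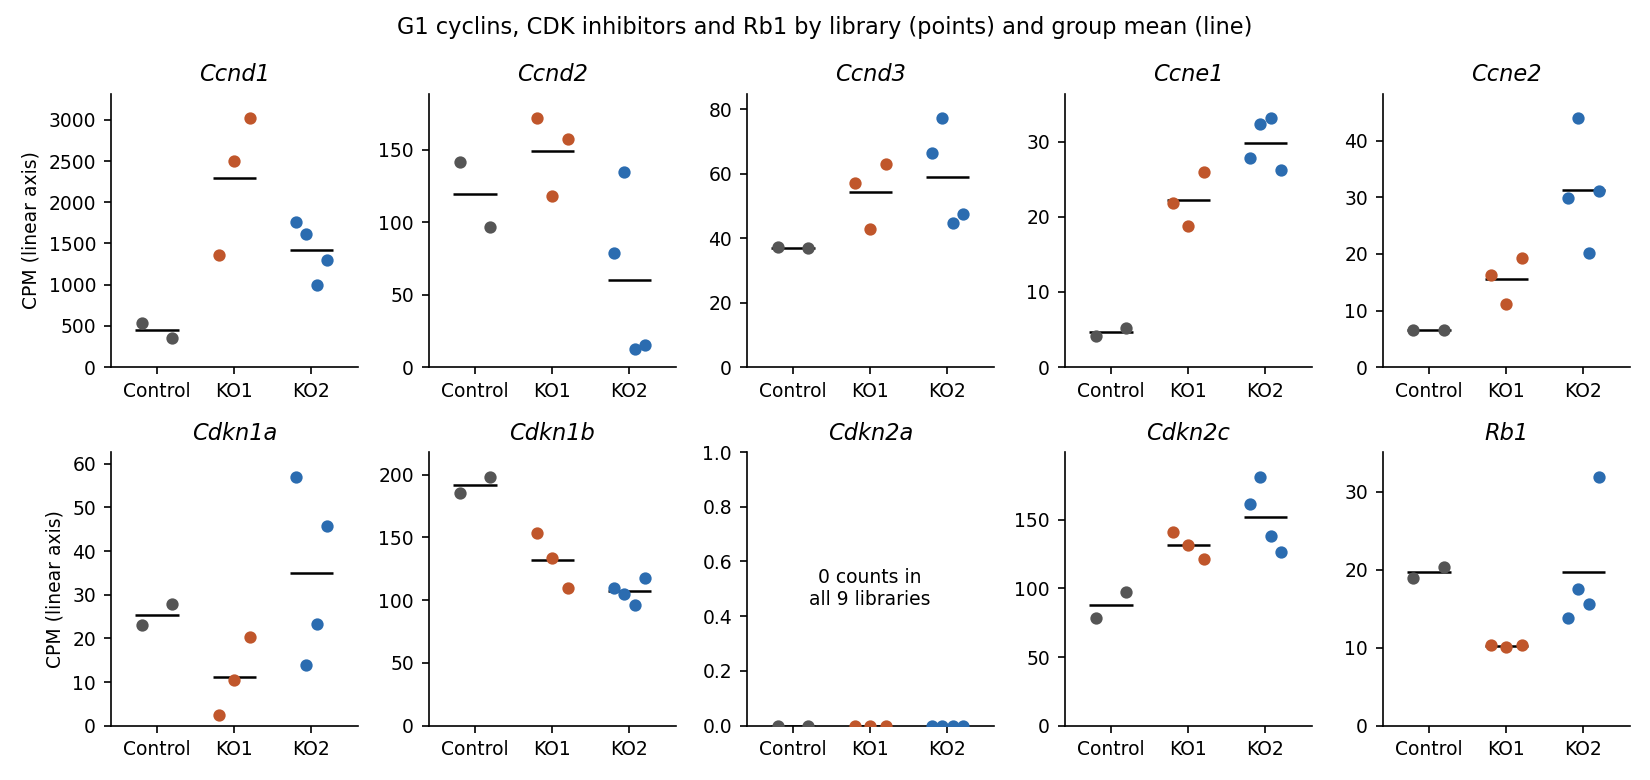
Each panel gives 1 gene, with CPM on a linear axis from 0, a point for each library and a line at the group mean. Ccnd1, Ccne1, Ccne2 and Cdkn2c lie higher in every KO1 and KO2 library than in both control libraries, Cdkn1b lies lower, Ccnd2 and Cdkn1a spread widely inside a clone, and Cdkn2a has 0 counts.

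Clone by clone, 6 of 9 were called in KO1, 4 higher (Ccnd1, Ccne1, Ccne2, Cdkn2c) and 2 lower (Cdkn1b, Rb1). Over all tested genes the KO1 comparison called 31.6%, 15.9% higher and 15.7% lower. In KO2 6 of 9 were called as well, 5 higher (Ccnd1, Ccnd3, Ccne1, Ccne2, Cdkn2c) and 1 lower (Cdkn1b), beside 31.4% of all tested genes (16.5% higher, 15.0% lower). The clones share the 2 control libraries, so the values of one clone are no independent check on the other. Without either control library fewer were called in each clone, in KO1 Ccnd1 and Ccne1 alone. Without KO1 replicate 2 there were 3 in KO1. The share of all tested genes called was not counted for these fits. In a direct test of KO1 against KO2, 2 of 9 were called, Ccne2 and Rb1, both lower in KO1, beside 19.6% of all tested genes (9.43% higher and 10.2% lower in KO1).

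**Figure D2:**
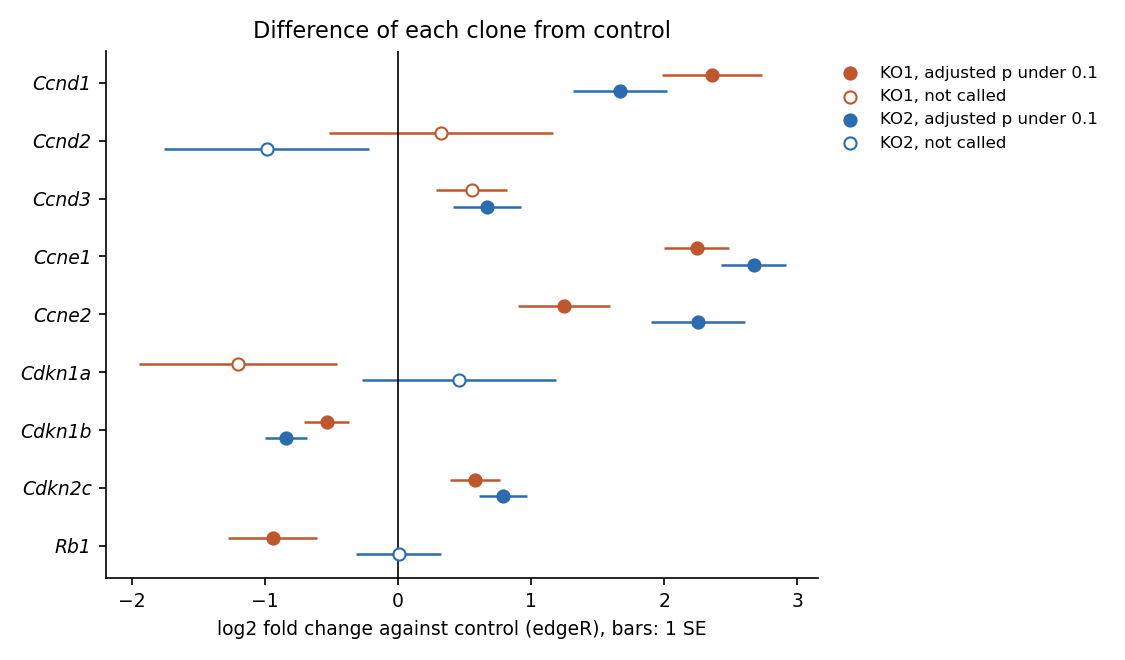
Points are log2 fold changes of KO1 and KO2 against control from the 3-group edgeR fit for the 9 tested genes, bars are 1 SE, and filled points have an adjusted p under 0.1. Both clones lie on the same side of 0 for every filled gene other than Rb1, which is at -0.94 in KO1 and 0.01 in KO2.

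Among the D cyclins, Ccnd1 on chr7:144929931-144939925 (minus strand, GRCm38) was at 536 and 355 CPM in control. It was at 1365, 2495 and 3017 CPM in KO1 and at 1757, 1618, 998 and 1296 CPM in KO2. Every KO library was thus above both control libraries, with the lowest at 998 CPM. The log2 fold change was 2.01 in all KO libraries (SE 0.43, adjusted p = 0.0137, edgeR), a 4.02-fold rise. It was 2.36 in KO1 (SE 0.38, adjusted p = 0.00337) and 1.67 in KO2 (SE 0.35, adjusted p = 0.0107). In the clones' direct comparison the difference was 0.69 (SE 0.29, adjusted p = 0.143), and the libraries overlapped. The call in all KO libraries was lost without either control library (adjusted p up to 0.172), and the KO2 call without control replicate 2 (adjusted p = 0.120). Because RNA of whole cultures was measured, more cells in a phase and more RNA per cell cannot be told apart, here and for each gene that follows. The study reports that its KO cells grew to lower numbers than control cells. Its BrdU assay gave KO1 a larger share of cells in G2 and a smaller share in S phase than control. The part of these differences in the RNA levels was not tested.

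Ccnd3 (chr17:47505051-47599691, plus strand), a D cyclin of broad expression, was at 37.2 and 36.9 CPM in control. It was at 57.3, 42.8 and 63.1 CPM in KO1 and 66.5, 77.2, 44.7 and 47.7 CPM in KO2, so no KO library reached down to control. Its log2 fold change was 0.62 in all KO libraries (SE 0.24, adjusted p = 0.111), which missed the threshold, and 0.67 in KO2 (SE 0.26, adjusted p = 0.089), which passed. The 2-sided exact permutation test on log2(CPM + 1) gave p = 0.0556 for all KO libraries. The KO2 call was lost without either control library, without KO2 replicate 1 or without KO2 replicate 2.

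Ccnd2 (chr6:127125162-127152193, minus strand) did not separate the groups. Control was at 141 and 96.8 CPM, KO1 at 171, 118 and 158 CPM, and KO2 at 78.9, 134, 12.8 and 15.0 CPM. KO2 replicates 3 and 4 were thus far below KO2 replicates 1 and 2, and the highest KO2 library was 10.4 times the lowest. Among the 12028 tested genes that averaged 1 CPM or more, 4.06% had as wide a range within KO2, where the median was 1.71 times. KO2 replicates 3 and 4 correlated with each other at 0.967 and KO2 replicates 1 and 2 at 0.970, while pairs across them had 0.938 to 0.963; the part of this difference in the Ccnd2 result was not tested. The log2 fold change in KO2 was -0.99 (SE 0.77, adjusted p = 0.383) and became -1.75 (adjusted p = 0.0874) without KO2 replicate 2.

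Levels of different genes were compared as CPM per kb of exon. On that scale Ccnd1 made up 83.9% and 85.5% of the summed D cyclin level in the control libraries, 92.1 to 96.8% in KO1 and 93.7 to 97.5% in KO2. The share of Ccnd2 was 11.3% and 11.4% in control and 0.566 to 5.79% in the KO libraries. The sum of the 3 genes was 112 ± 30.6 CPM per kb in control (SD, n = 2), 509 ± 178 in KO1 (SD, n = 3) and 314 ± 78.6 in KO2 (SD, n = 4). Since Ccnd1 dominates the sum, the sum follows Ccnd1.

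**Figure D3:**
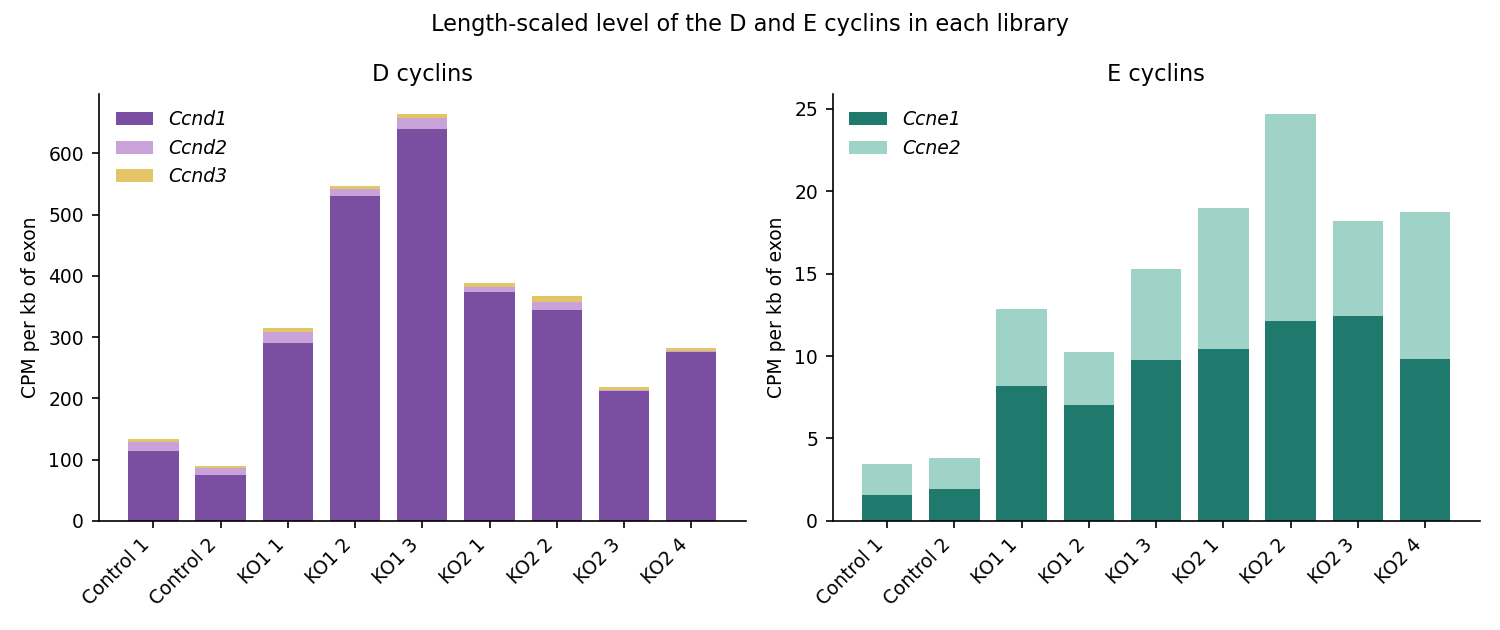
Stacked bars give the level of each D cyclin (left) and E cyclin (right) in each library, in CPM per kb of exon on linear axes from 0, with libraries named by group and replicate. The D cyclin bars are nearly all Ccnd1, and the E cyclin bars of the KO libraries (10.2 to 24.7 CPM per kb) are all above those of control (3.44 and 3.82).

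Both E cyclins were higher in every KO library than in control. Ccne1 (chr7:38097984-38107534, minus strand), a partner of CDK2 at the start of S phase, was at 4.15 and 5.22 CPM in control. KO1 was at 21.8, 18.8 and 26.0 CPM and KO2 at 27.8, 32.3, 33.1 and 26.2 CPM. The lowest KO library (18.8 CPM) was thus well above the highest control library (5.22 CPM). The log2 fold change was 2.50 in all KO libraries (SE 0.29, adjusted p = 0.00125), 2.25 in KO1 (SE 0.24, adjusted p = 0.000881) and 2.67 in KO2 (SE 0.24, adjusted p = 0.000447, edgeR). KO1 against KO2 was at -0.43 (SE 0.19, adjusted p = 0.163), although no KO1 library reached the lowest KO2 library.

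Because Ccne1 had the largest log2 fold change of the 9 tested genes in all KO libraries together (in KO1 that of Ccnd1 was larger), the 250 bases before its RefSeq start are shown, chr7:38107491-38107740 of GRCm38 on the minus strand. Capitals mark TCCCGC or its reverse complement GCGGGA, the core letters of E2F sites, found by search on both strands at 47 and 7 bases before the start.
Ccne1 promoter: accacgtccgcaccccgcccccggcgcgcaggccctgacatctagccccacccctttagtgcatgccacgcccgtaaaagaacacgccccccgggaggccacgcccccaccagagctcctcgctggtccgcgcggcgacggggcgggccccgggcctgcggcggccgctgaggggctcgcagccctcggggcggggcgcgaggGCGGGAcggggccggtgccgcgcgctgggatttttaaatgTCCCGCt
This core lay in 20.0% of all 32851 RefSeq promoter windows of 300 bases (250 before to 50 after a start). It lay in 3 of the 10 windows of the 6 members with a window (those of Ccne1, Cdkn2a and Cdkn2c). It is a match of letters and no evidence of binding. Windows were used for Ccnd3, Ccne1, Cdkn1a, Cdkn1b, Cdkn2a and Cdkn2c.

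Ccne2 (chr4:11191351-11204779, plus strand), the other E cyclin, was at 6.56 and 6.50 CPM in control. KO1 was at 16.2, 11.1 and 19.2 CPM and KO2 at 29.9, 43.9, 20.1 and 31.0 CPM. No KO2 library was as low as the highest KO1 library. The log2 fold change was 1.91 in all KO libraries (SE 0.50, adjusted p = 0.0287), 1.25 in KO1 (SE 0.35, adjusted p = 0.0303) and 2.26 in KO2 (SE 0.35, adjusted p = 0.00334). Between the clones it was -1.01 (SE 0.28, adjusted p = 0.0506, edgeR), so Ccne2 was lower in KO1 than in KO2. That call was lost without KO1 replicate 1 or without KO1 replicate 2 (adjusted p up to 0.191), and the calls against control in KO1 and in all KO libraries were lost without either control library.

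Per kb of exon, Ccne1 made up 45.4% and 51.3% of the E cyclin level in control, 63.9 to 69.0% in KO1 and 49.1 to 68.4% in KO2. KO1 libraries had a higher Ccne1 share than both control libraries, while KO2 replicate 2 (49.1%) lay between the control values. The summed E cyclin level was 3.63 ± 0.271 CPM per kb in control (SD, n = 2), 12.8 ± 2.52 in KO1 (SD, n = 3) and 20.2 ± 3.05 in KO2 (SD, n = 4).

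The Cip/Kip inhibitors differed from each other. Cdkn1b (chr6:134920401-134925513, plus strand) encodes p27, which holds cyclin E-CDK2 inactive in resting cells. It was at 185 and 198 CPM in control, 154, 133 and 110 CPM in KO1 and 109, 105, 95.8 and 117 CPM in KO2. All 7 KO libraries were lower than both controls. Cdkn1b fell by 0.70 on the log2 scale in all KO libraries (SE 0.17, adjusted p = 0.0235), by 0.54 in KO1 (SE 0.17, adjusted p = 0.0459) and by 0.84 in KO2 (SE 0.16, adjusted p = 0.00625, edgeR). The KO2 call stood without any single library (adjusted p up to 0.0828), whereas the KO1 call was lost without either control library, without KO1 replicate 2 or without KO1 replicate 3.

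Cdkn1a (chr17:29090976-29100727, plus strand) encodes p21. It was at 23.1 and 27.8 CPM in control, 2.44, 10.5 and 20.3 CPM in KO1 and 57.0, 13.9, 23.2 and 45.7 CPM in KO2. All KO1 libraries were below control, while KO2 libraries lay on both sides of it. The highest KO1 library was 8.31 times the lowest, a range that 1.11% of 12028 genes reached within KO1, and in KO2 it was 4.09 times (9.49% of genes). None of the comparisons passed the edgeR threshold, with a log2 fold change of -1.20 in KO1 (SE 0.75, adjusted p = 0.271), 0.46 in KO2 (SE 0.73, adjusted p = 0.681) and -1.66 between the clones (SE 0.66, adjusted p = 0.133). With such errors, the KO2 estimate plus or minus 2 SE ran from -0.997 to 1.91, so changes of either sign are compatible with these libraries. DESeq2 called the difference between the clones (log2 fold change -1.66, adjusted p = 0.0310).

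The INK4 inhibitors were at opposite ends of the scale. Cdkn2c (chr4:109660876-109667189, minus strand), which encodes p18, was at 78.8 and 97.2 CPM in control, 141, 132 and 121 CPM in KO1 and 162, 181, 138 and 126 CPM in KO2. All KO libraries were above control. The log2 fold change was 0.70 in all KO libraries (SE 0.19, adjusted p = 0.0313), 0.58 in KO1 (SE 0.19, adjusted p = 0.0524) and 0.79 in KO2 (SE 0.18, adjusted p = 0.0153, edgeR). This CDK4 and CDK6 inhibitor was thus called higher, as were the cyclins Ccnd1, Ccne1 and Ccne2. In KO1 the call was lost without either control library, without KO1 replicate 1 or without KO1 replicate 2, and in KO2 without control replicate 1 (adjusted p = 0.163).

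Cdkn2a (chr4:89274471-89294653, minus strand) had 0 counts in each of the 9 libraries and could not be tested. Over the libraries together, 0 counts allow a level of up to 0.00831 CPM (3 counts), and the limit is 0.0383 CPM in control and 0.0106 CPM in the KO libraries. These limits cover counting error only, and PCR copies are not independent molecules. The neighboring Cdkn2b, which encodes the INK4 inhibitor p15, also had 0 counts in all 9 libraries. The genes around the pair were then looked at, a choice made after these values were seen. Mtap, centred 125 kb away, had 18174 to 49739 counts in each library (588 to 922 CPM), and the noncoding Gm12606, centred 30.0 kb away, had 15 to 77 counts. On the other side, Gm12610 (centred 158 kb away) had 1 to 17 counts in a library, Gm12608 had 0 to 26 counts, and Dmrta1 had 0 or 1 count. The Cdkn2a count joins the p16 and p19Arf transcripts, so the isoforms were not analysed here.

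**Figure D4:**
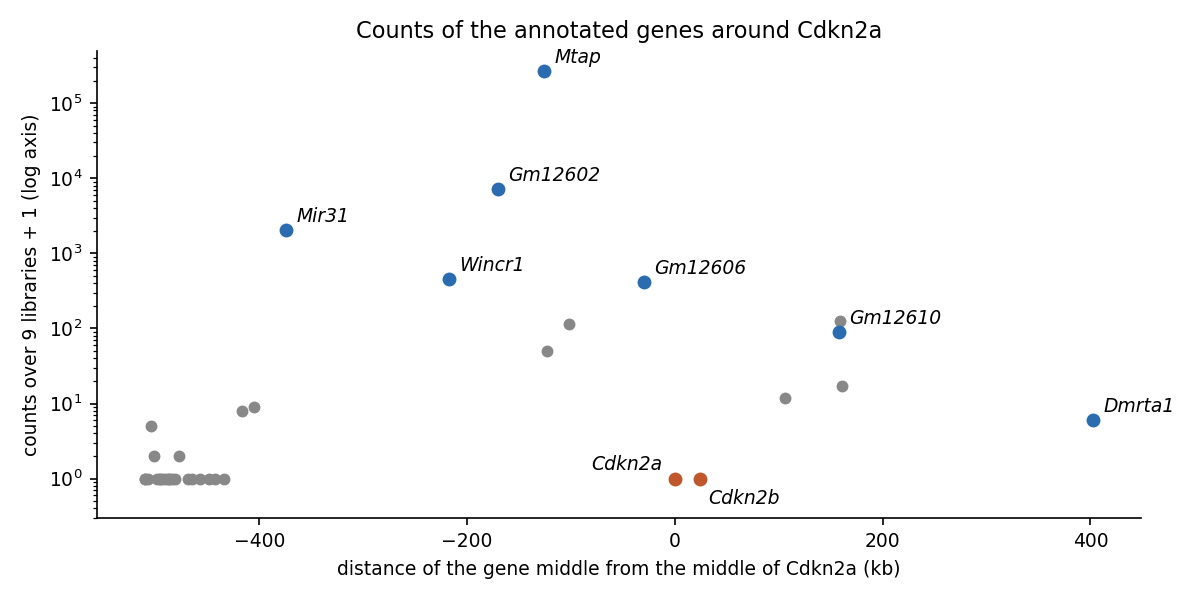
Each point is an annotated gene within 500 kb of Cdkn2a, placed by the distance of its middle from that of Cdkn2a in kb, with its counts over the 9 libraries plus 1 on a log axis. Cdkn2a and Cdkn2b (orange) lie at the bottom with 0 counts, and Mtap has 267395 counts in all.

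The window before the upstream Cdkn2a start, at chr4:89294620-89294869 (minus strand), is shown because this gene had no count in any library while, of the 6 genes with a window, it alone held a full E2F word. The words searched on both strands were TTTCCCGC, TTTCGCGC, TTTGCCGC and TTTGGCGC, of which the first contains the core TCCCGC. The match, in capitals, began 99 bases before the start, and further matches to the core are left in lower case.
Cdkn2a promoter: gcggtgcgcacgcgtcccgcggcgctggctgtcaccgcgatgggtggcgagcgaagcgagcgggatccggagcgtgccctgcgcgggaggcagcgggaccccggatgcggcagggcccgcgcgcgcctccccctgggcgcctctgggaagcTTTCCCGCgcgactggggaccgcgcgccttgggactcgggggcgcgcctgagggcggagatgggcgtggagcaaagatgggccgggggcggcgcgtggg
Such a word lay in 2.26% of the 32851 windows and in 1 of the 10 windows of the 6 genes. Of 37 other genes of the G1 pathway lists, 7 held it in a window. That is a count of genes, some with more than 1 window, and cannot be set against the share of windows.

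Rb1 (chr14:73183673-73325822, minus strand), the pocket protein that the G1 kinases inactivate, was at 19.0 and 20.3 CPM in control. KO1 was at 10.3, 10.1 and 10.3 CPM and KO2 at 13.8, 17.6, 15.6 and 31.9 CPM. The KO1 libraries lay close together and below all others, and KO2 replicate 4 was above both controls while the other KO2 libraries were below them. Rb1 fell by 0.94 on the log2 scale in KO1 (SE 0.33, adjusted p = 0.0698), and in KO2 the value was 0.01 (SE 0.32, adjusted p = 0.993, edgeR). The difference of -0.95 between the clones passed the threshold (SE 0.29, adjusted p = 0.0641). The KO1 call was lost on leaving out any of the control or KO1 libraries (adjusted p from 0.141 to 0.271), and the call between the clones was lost without any of the KO1 libraries.

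Per kb of exon, Ccnd1 had the highest level of the 10 genes in each group (94.7 CPM per kb in control, 487 in KO1 and 301 in KO2). In control it was followed by Cdkn1b (42.1 ± 1.98, SD, n = 2) and Cdkn2c (32.7 ± 4.85, SD, n = 2), with no overlap between their libraries. In the clones this order was turned, with Cdkn2c (49.0 ± 3.73 in KO1, n = 3; 56.5 ± 9.12 in KO2, n = 4) above Cdkn1b (29.0 ± 4.82 and 23.5 ± 1.98), again with no overlap. Ccne2 (1.87 CPM per kb) and Ccne1 (1.76) were lowest of the detected genes in control, and their libraries overlapped. Ccne1 took the fifth place in KO1 and the fourth in KO2. The neighbors Ccne1, Ccnd3, Ccne2, Cdkn1a and Rb1 in KO1, and Ccne1, Cdkn1a, Ccne2, Ccnd3, Ccnd2 and Rb1 in KO2, each overlapped with the next in order.

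For Ccnd1, Ccne1 and Cdkn2c, which had the highest mean length-scaled level of their class over the 9 libraries together (though in control Ccne2 and Cdkn1b were above Ccne1 and Cdkn2c), the genes with the most similar pattern over the 9 libraries were found by the root mean square difference of log2 CPM centred on each gene's mean. Nearest to Ccnd1 were Gm6169 (0.265), 9130208D14Rik (0.289) and Pclaf (0.289), where the median over 11882 genes was 1.01. Gm6169 and the pseudogene 9130208D14Rik had low levels, with means of 0.540 and 0.656 CPM in control. Their means were 2.83 and 3.36 CPM in KO1 and 1.77 and 1.98 CPM in KO2. Pclaf, which encodes a factor that binds PCNA, was at a mean of 31.8 CPM in control, 144 CPM in KO1 and 79.6 CPM in KO2. Nearest to Ccne1 were Rrm2 (0.255), Cst6 (0.284) and Tpgs2 (0.305), with a median of 1.14. Rrm2, a subunit of ribonucleotide reductase, was at 70.8 CPM in control, 257 CPM in KO1 and 307 CPM in KO2. Nearest to Cdkn2c were Tceal9 (0.105), Arpc1b (0.129) and Cox8a (0.130), with a median of 0.509. These distances describe 9 libraries that share group differences.

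The 44 genes of 7 lists around the G1 checkpoint were then read from the same fit. Of 42 tested, 20 were called in KO against control, 13 higher and 7 lower, beside the 22.6% of all tested genes (11.9% higher, 10.7% lower). The same shares stand beside the count of each list below. Of the kinases and their activators, 3 of 7 rose and 1 fell. The G1 kinases Cdk2 (48.1 ± 2.25 CPM in control, n = 2; 105 ± 15.4 CPM in KO, SD, n = 7; log2 fold change 1.12, adjusted p = 0.00496) and Cdk4 (375 ± 10.7 and 612 ± 84.2 CPM; log2 fold change 0.70, adjusted p = 0.019) rose. Cdk6, the other partner of D cyclins, was at 188 ± 25.9 CPM in control and 152 ± 15.9 CPM in KO (log2 fold change -0.30, adjusted p = 0.189). Cdc25a, the phosphatase that activates CDK2, rose by 1.00 on the log2 scale (adjusted p = 0.0479), and Mnat1, a subunit of the CDK-activating kinase, fell by 1.38 (adjusted p = 0.0107, edgeR).

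Of the other inhibitors, Cdkn2d (p19Ink4d) rose from 23.8 ± 2.06 to 46.2 ± 13.4 CPM (log2 fold change 0.96, adjusted p = 0.0646). Cdkn1c (p57) was called lower (adjusted p = 0.0578), from 0.263 and 0.275 CPM in control to between 0 and 0.126 CPM in KO. At so low a level its fitted log2 fold change of -2.90 depends on the prior count. Of the SCF ubiquitin ligase genes and others that turn over G1 cyclins and p27, 2 of 7 were called (28.6%), each higher. This is near the 22.6% called over all tested genes. Skp2, the F-box protein that marks p27 for degradation, rose from 36.3 ± 1.97 to 94.7 ± 13.8 CPM (log2 fold change 1.38, SE 0.19, adjusted p = 0.0026), and its cofactor Cks1b rose by 0.87 (adjusted p = 0.0372, edgeR). Fbxw7, which marks cyclin E, had a log2 fold change of -0.31 (adjusted p = 0.278).

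Of the E2F and DP factors, 2 of 7 rose and 1 fell. E2f1, which drives genes of S phase, rose from 22.1 ± 3.04 to 98.9 ± 20.5 CPM (log2 fold change 2.16, SE 0.27, adjusted p = 0.00175). Its dimer partners moved apart, with Tfdp1 at a log2 fold change of 0.62 (adjusted p = 0.0781) and Tfdp2 at -0.86 (adjusted p = 0.0543). Of the other pocket proteins, Rbl1 and Rbl2 were not called in KO against control (log2 fold changes of -0.05 and 0.60, adjusted p of 0.922 and 0.201). Rbl1 differed between the clones, 0.71 higher in KO1 (adjusted p = 0.0128, edgeR). Of the cyclins and kinase of later phases 4 of 5 rose, Ccna2 by 0.83, Ccnb1 by 0.90, Ccnf by 1.30 and Cdk1 by 0.88 on the log2 scale (adjusted p of 0.0301, 0.0121, 0.0123 and 0.0174). Ccnb2 was at 0.59 (adjusted p = 0.164) and its libraries overlapped. The list's median was 0.88.

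**Figure D5:**
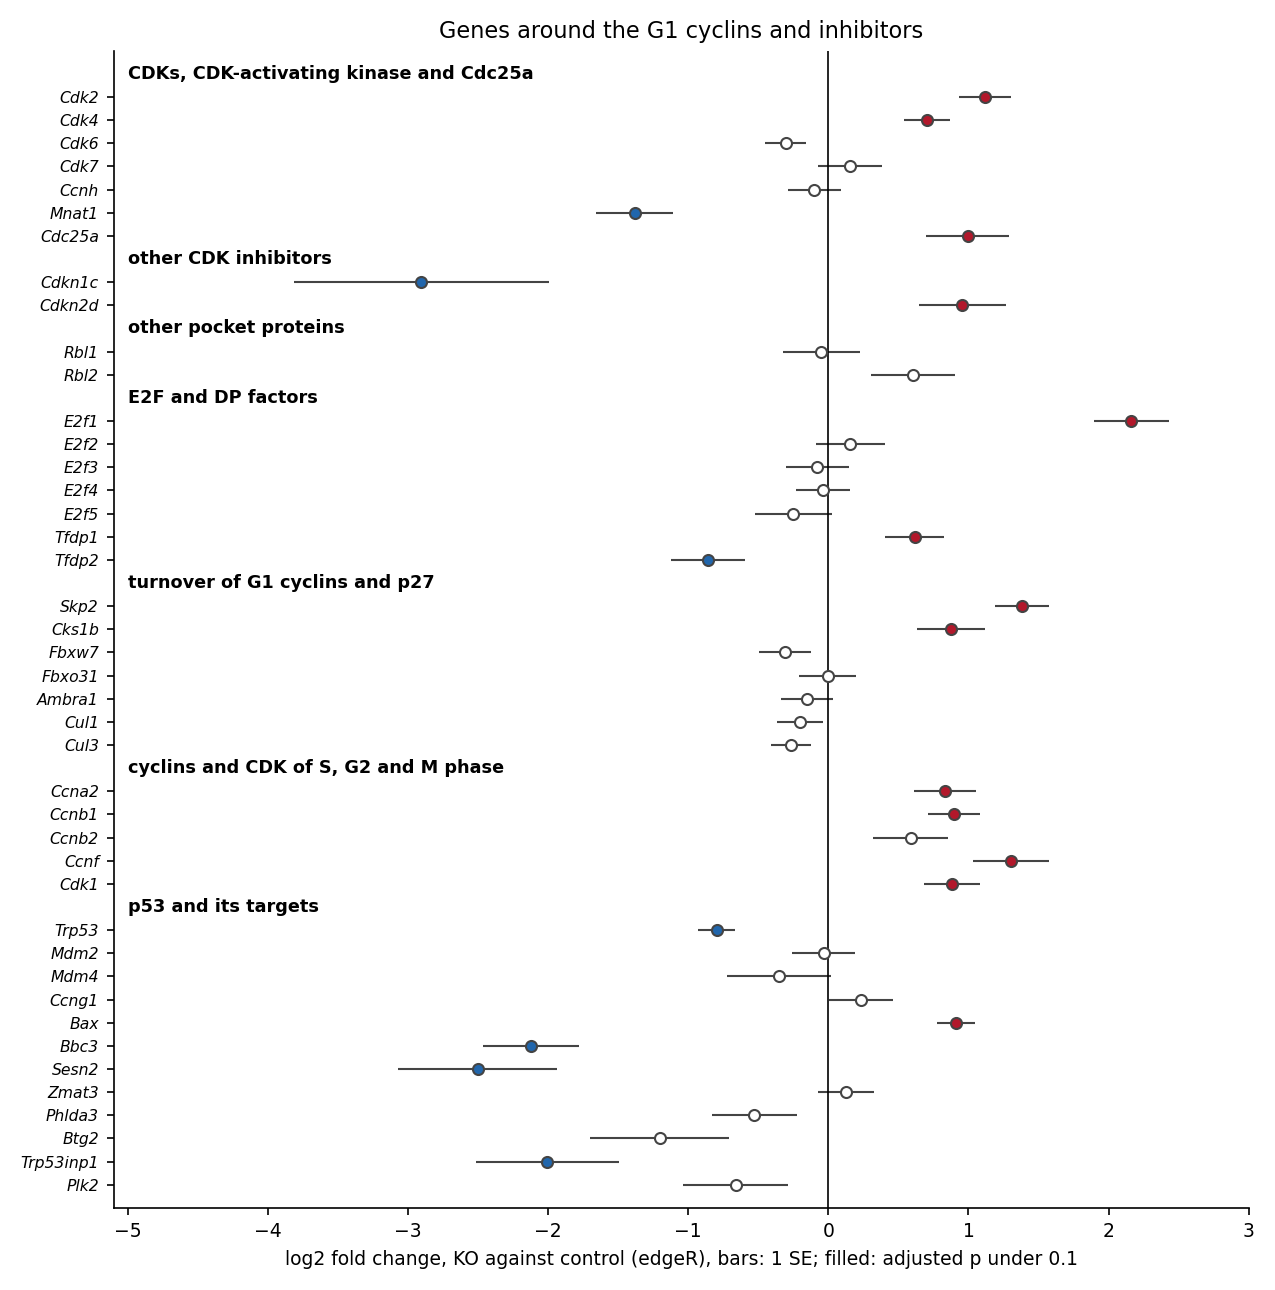
Points are log2 fold changes of the 42 tested genes of the pathway lists in all KO libraries against control (edgeR), bars are 1 SE, and filled points (red higher, blue lower) have an adjusted p under 0.1. E2f1 (2.16) and Skp2 (1.38) lie farthest to the right, and Cdkn1c (-2.90), Sesn2 (-2.50) and Bbc3 (-2.12) farthest to the left.

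Of p53 and its targets, 1 of 12 tested genes rose and 4 fell. Trp53 was at 84.9 and 90.7 CPM in control, 50.7, 44.9 and 48.1 CPM in KO1 and 54.2, 48.6, 51.2 and 56.1 CPM in KO2. It was lower in 7 of 7 KO libraries (log2 fold change -0.80, SE 0.13, adjusted p = 0.00461, edgeR). Bbc3 (PUMA, which drives apoptosis) fell by 2.12 on the log2 scale and Sesn2 (a stress-induced regulator of TOR) by 2.50 (adjusted p of 0.00432 and 0.0167), and Trp53inp1 fell 4.01-fold (adjusted p = 0.0267). Bax, which also drives apoptosis, rose by 0.91 (adjusted p = 0.00316). Mdm2, the ubiquitin ligase of p53, was at -0.03 (adjusted p = 0.937), and Cdkn1a, counted among the 10 genes, was at -0.04 (SE 0.83, adjusted p = 0.979). The median over the list was -0.59, beside 0.06 over all tested genes. Trp53inp1 and the genes Fbxw7, Rbl1, Rbl2, Ccnb2 and Mdm2, which were not called in all KO libraries, were picked for mention after their values were seen.

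ChIRP-seq, a pulldown of MaTAR25 with the DNA it touches, was given as peak lists of pooled replicates, so no replicate test can be made. In the list of the total pool of 14 oligos in 4T1 cells, 6 of the 10 genes were nearest to at least 1 of the 76806 peaks, beside 59.6% of all tested genes. These were Ccnd1 with 7 peaks, Ccnd3 with 6, Rb1 with 3, Ccnd2 and Ccne1 with 2 each and Cdkn1a with 1. Ccne2, Cdkn1b, Cdkn2a and Cdkn2c had none, so genes called in KO cells were found with and without peaks. The highest score was 223.3, for chr7:144960428-144961052 at 20815 bases before the Ccnd1 start (median score of the list 42.0). Next came an intronic Ccnd3 peak at chr17:47520096-47520721 (score 219.8), 15167 bases after a start, and an Rb1 peak at chr14:73265107-73265731 (score 203.7). The NDL list is of the total pool in MMTV-Neu-NDL cells, which are mouse mammary tumor cells other than 4T1. The odd and even lists are from 4T1 cells, and these pools hold different oligos. The highest Ccnd1 peak overlapped a peak in each of the odd, even and NDL lists. The Ccnd1 peaks with scores of 78.1, 75 and 72.2 did so too. The share of all peaks that do so was not counted, so whether the overlap sets these peaks apart is not known. With a score of at least 100, 3 of the 10 (Ccnd1, Ccnd3 and Rb1) kept a peak, beside 26.1% of all tested genes. Counted instead over the gene body and 5 kb before the start, 5 of the 10 held a peak, beside 59.1% of tested genes. By that rule Ccnd1 had 0 peaks, since all of its peaks are intergenic, and Rb1 had 5.

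Of the 21 peaks given to the 10 genes, 5 (23.8%) shared 12 or more bases in a row with one of the MaTAR25 oligos, beside 24.2% of all peaks. Sequence outside the peaks was not searched, so the share of matches expected by chance is not known. The stretch of the highest Ccnd1 peak around its match, chr7:144960630-144960761 (plus strand), is shown with the oligo because this peak scored highest. Capitals mark the 12 matching bases. The study names the same 12 letters as its top ChIRP-seq motif and reads them as a MaTAR25-PURB motif. The part of the oligo match in that motif was not tested.
MaTAR25 oligo 4: caggtggtggagatggaatg
Ccnd1 peak: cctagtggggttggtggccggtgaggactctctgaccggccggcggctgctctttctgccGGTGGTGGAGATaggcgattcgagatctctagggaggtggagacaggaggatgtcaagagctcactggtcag
The single Cdkn1a peak, chr17:29090668-29091167, had a score of 32.2 and lay over the gene's upstream start, with its centre 62 bases before it. It overlapped a peak of the even list and none of the odd or NDL lists. The bases before that start, chr17:29090729-29090978 (plus strand), lie wholly inside the peak. Capitals mark CATGNNNNNNCATG, a pair of CATG cores at the spacing of p53 half-sites, 48 bases before the start.
Cdkn1a promoter: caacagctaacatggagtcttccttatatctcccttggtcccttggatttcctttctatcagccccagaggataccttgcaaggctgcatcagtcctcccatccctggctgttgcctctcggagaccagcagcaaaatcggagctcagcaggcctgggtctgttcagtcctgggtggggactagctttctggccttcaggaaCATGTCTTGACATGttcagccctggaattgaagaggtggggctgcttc
This pair lay in 0.712% of all windows and in windows of 0 of the 37 pathway genes with one. These letters were searched after the sequence had been read, and the match is a description of the window.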

How the data were processed

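RNA-seq of polyadenylated RNA from 4T1 cells gave deposited read counts per gene, which the authors made by mapping to GRCm38 with STAR and counting with HTSeq on GENCODE vM5 (strand setting not given in the sources used here). CASAVA, FastQC, DESeq2, Bowtie2 and HOMER are also named in the submitters' processing notes. The ChIRP-seq lists hold the HOMER peak score as the authors deposited it, of peaks called on pooled replicates against a Ppib pulldown. Lines that name no gene (33.9 to 37.0% of counts) were left out, and the KO2 replicate 2 table, which lists each gene 3 times, was used once.

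Counts were tested with edgeR 4.0.16 in R 4.3.3 (TMM, filterByExpr, quasi-likelihood, Benjamini-Hochberg over all genes tested, adjusted p under 0.1), in a fit of KO against control and a fit of the 3 groups. Both were run on simulated counts with 200 changed genes, far fewer than were called here. That run does not show how well small changes are called in these libraries. Levels between genes were divided by exon length (GENCODE vM21). Promoter windows came from RefSeq (GRCm38.p6), and oligo sequences from the study's oligo list. DESeq2 1.42.0, other normalization, filters and thresholds, a replicate block and leaving out each library were the alternatives. Named were all 10 genes, the called genes of each pathway list with the same direction in both clones (at most 4 a list), Cdk2, Cdk4 and Cdk6, and the 3 genes nearest in pattern to Ccnd1, Ccne1 and Cdkn2c. The members and lists were chosen with earlier results of these data known. Depth was 25367211 to 61110585 counts a library. A gene without a count is given with the level that 3 counts would have, which covers counting error only.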

Additional observations from a re-analysis of the deposited data

Results flagged for a closer look

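Rb1 in KO2 replicate 4 stood apart from the other 6 KO libraries at 31.9 CPM, with its gap to the nearest of them too large a share of their range for Dixon's 95% limit. The 9 detected genes were searched in the KO2 group and in all KO libraries, and chance flags about 1 in 20 groups. Over all KO libraries, which include KO1 at 10.1 to 10.3 CPM, the ratio was 0.656 (limit 0.568). Within KO2 alone the same library did not pass (ratio 0.793, limit 0.829). Without that library the Rb1 log2 fold change in KO2 was -0.33, and it was not called.

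The clones differed in Ccne2, where the log2 fold change of KO1 against KO2 was -1.01 (edgeR, adjusted p = 0.0506), with 3 of 3 KO1 libraries below every KO2 library. They differed in Rb1 as well, at -0.95 (edgeR, adjusted p = 0.0641), again with all 3 KO1 libraries below every KO2 library. These were 2 of 9 tested members, near the 19.6% of all tested genes called between the clones. With the replicate number as a block neither was called.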

How the results depend on the processing

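No log2 fold change of a member turned its sign with a call under the alternatives run. Over single values, 212 of those under other settings stayed on the same side of the threshold, 6 gained a call and 7 lost it, and leaving out 1 library gave 202, 7 and 34. Leaving out 1 KO library gave 5 to 6 members called in all KO libraries, 3 to 4 in KO1 and 5 to 6 in KO2. Between the clones it gave 0 to 4 (0 without KO1 replicate 2, 1 without KO1 replicate 1, 4 without KO2 replicate 2). Without either control library, which leaves 1 in that group, fewer were called in all KO libraries and in each clone. The share of all tested genes called was not counted for these fits. Between the clones edgeR called 2 members; it called 4 with no filter on low counts, 1 with only the groups compared in the fit, 6 at an adjusted p under 0.2 and 0 at an adjusted p under 0.05, while DESeq2 called 3. Between the clones Cdkn1a, not called by the edgeR fit reported, was called by DESeq2 (adjusted p = 0.0310) and by edgeR with no filter on low counts (0.0600), without KO1 replicate 3 (0.0901) and without KO2 replicate 2 (0.0802).

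Deviations from the group mean correlated at -0.149 to 0.0429 between same-numbered libraries and at -0.120 to 0.150 between libraries of different numbers. In the control pair these deviations mirror each other, and in each group they are tied together. The values therefore show no sign of pairing by replicate number but cannot exclude it. With the replicate number as a block, edgeR called 4 members in all KO libraries, 5 in KO1, 5 in KO2 and 0 between the clones, where DESeq2 without the block called 3. The block ended the Cdkn1b call in all KO libraries (adjusted p = 0.121) and in KO1 (0.101), the Ccnd3 call in KO2 (0.117) and both calls between the clones. At an unadjusted p under 0.05, edgeR had 4 members between the clones with the block, 2 without KO1 replicate 2 and 5 in the fit reported. Of the ChIRP peaks, a score of at least 100 left 3 members with a peak in place of 6 (26.1% of all tested genes), and the gene body with 5 kb before the start left 5, with Ccnd1 going from 7 peaks to 0. Low counts limit Cdkn2a, Cdkn2b, Cdkn1c, Eda2r and MaTAR25.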
